A study of Homo sapiens with 4 samples.

Results

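The genes described here are 42 listed genes of NF-kB signalling and inflammatory cytokine production, measured in MV4-11 cells. A gene was represented by the array probe sets whose annotation names that gene alone, and where there were several, by the brightest on average over the 4 arrays. On this rule 40 of the 42 genes had a probe set, of 22357 genes with one in the whole table. BIRC3, an inhibitor of apoptosis, had no probe set listed in the annotation used here, and SOD2, the mitochondrial superoxide dismutase, was found on probe sets shared with SOD2-OT1.

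MV4-11 is a human cell line grown from an acute myeloid leukaemia and resembles immature monocytes. Cells were transduced with 1 of 4 short hairpin RNAs, kept in 3 µM doxycycline for 24 h, and RNA from each culture was read on 1 Affymetrix array. The question of the series is what changes as RUNX1, a transcription factor required for blood formation, is knocked down to different degrees. The groups are the RUNX1 hairpin labelled profound #1 (profound 1), the RUNX1 hairpin labelled profound #2 (profound 2), the RUNX1 hairpin labelled moderate, and a control hairpin directed at luciferase. All 4 groups, control included, carry a hairpin and received doxycycline. The labels speak of transduced cells and not of clones, and the description fields of profound 1 and profound 2 name RUNX2 and RUNX3 where their titles and genotypes name RUNX1. Values are log2 RMA signals (background-corrected, quantile-normalised and summarised per probe set), so a difference of 1 is a doubling of signal.

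With 1 array per group no difference has a replicate check, no p-value was computed, and precision is limited by there being so few arrays. A gene is called higher or lower at 1.5-fold, and counts of called genes are set beside the percentage of all 13087 genes above a dim filter that pass the same rule. The filter requires a signal above the table median (3.08) in at least 1 array. As a yardstick of ordinary variation, genes were split into 6 classes by level, and the moderate array's differences from control had a robust SD of 0.25 log2 units in the dimmest class and 0.11 in the brightest. The yardstick mixes noise with any real effect of that hairpin. Over all 13087 genes the robust SD was 0.17 for moderate minus control, 0.26 for profound 1 minus control and 0.19 for profound 2 minus control. Between profound 1 and profound 2 it was 0.26. The yardstick thus comes from the narrowest of these comparisons and understates the spread in those with a profound array. Array medians lay between 3.07 and 3.09. The RUNX1 probe set, shared with LOC100506403, read 4.07 in profound 1, 4.04 in profound 2, 4.33 in moderate and 4.27 in control. Its differences from control were thus within the yardstick of 0.22 for that level, and the arrays are named by their labels. Of 11 myeloid and monocytic markers with a probe set, 10 read above the table median in all 4 arrays and CD14 read below it in all 4. So did 2 of 3 B cell, 2 of 3 platelet, 2 of 3 epithelial, 2 of 5 T and NK cell and 1 of 3 fibroblast markers read above it throughout. Passing the median alone thus does not name the cell type. Of the myeloid and monocytic list CD68 was the 1 gene past 1.5-fold in both profound arrays, beside 0.344% of all genes higher in both. It read 9.98 in profound 1, 9.91 in profound 2, 9.14 in moderate and 9.28 in control. The part of such a shift in the results below was not tested. In bulk RNA, fewer cells expressing a gene and less RNA per cell cannot be told apart.

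NF-kB is a family of dimeric transcription factors held in the cytoplasm by IkB proteins. Signals from TNF, interleukin-1 or Toll-like receptors activate the IkB kinase, IkB is degraded, and the freed dimers switch on cytokines, chemokines and survival genes, together with their own inhibitors such as IkB-alpha (NFKBIA) and the ubiquitin-editing enzyme A20 (TNFAIP3). In monocytes and their leukaemic counterparts this programme is a main route of TNF and interleukin-1 production.

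Of the 40 genes, TNF and TNFAIP3 were the only 2 at least 1.5-fold from control in both profound arrays, and both were lower. The same 2 genes were the only ones of the 34 above the dim filter at least 1.5-fold lower in both profound arrays than in the moderate array. The NF-kB subunits, the classical IkB gene NFKBIA and most chemokines showed no difference of that size.

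TNF encodes tumour necrosis factor, the cytokine that both triggers NF-kB and is induced by it. It read 6.93 in profound 1, 6.99 in profound 2, 7.69 in moderate and 7.73 in control. Both profound arrays lay below both others with no overlap, and the moderate array lay at the control level. The differences from control were -0.80 for profound 1 and -0.74 for profound 2, or signals 1.74-fold and 1.67-fold lower, against -0.04 for moderate. Set against the moderate array, the differences were -0.76 for profound 1 and -0.71 for profound 2.

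TNF has 8 probe sets, of which 7 hold identical values and are not separate measurements. The remaining one read 6.73 in profound 1, 6.71 in profound 2, 7.45 in moderate and 7.55 in control. Its differences from control were -0.82, -0.84 and -0.10, in the same order of hairpins. Both profound arrays were again the lowest, although how far the probe sets share probes is not given here.

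TNFAIP3 encodes A20, which removes activating ubiquitin chains and so restrains NF-kB. It read 5.66 in profound 1, 5.54 in profound 2, 6.32 in moderate and 6.28 in control. Again both profound arrays were low and the other two lay together. Relative to control it was 1.54-fold lower in profound 1 (-0.63 log2 units) and 1.67-fold lower in profound 2 (-0.74). The moderate array was 0.04 log2 units above control. Relative to moderate the differences were -0.67 and -0.79.

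The yardstick at these levels, taken from moderate minus control, was 0.13 for TNF and 0.16 for TNFAIP3. All genes spread more widely between the profound arrays and control. Being 1.5-fold lower than control in both profound arrays was met by 2 of the 34 genes of the set above the dim filter, beside 0.336% of all 13087 genes. For the comparison with the moderate array it was again 2 of 34, beside 0.512% of all genes, and none was higher in either comparison, beside 0.344% (control) and 0.329% (moderate). Both comparisons use the same profound arrays and are not independent of each other. The set was also chosen with earlier results of these data known, so its counts beside those of all genes describe the list. When both profound arrays had to lie 1.5-fold below both other arrays, a combination chosen after the values were seen, 15 of all genes passed (0.115%), TNF and TNFAIP3 among them. Lying 1.5-fold above both was met by none of the set, beside 0.0611%. The smallest step down from the other pair to the profound pair was 0.71 log2 units for TNF and 0.63 for TNFAIP3. Of the 13087 genes, 6 had a downward step of at least the TNF size, TNF included. At least the TNFAIP3 size was reached by 11, TNFAIP3 included. Upward steps were not part of these counts.

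**Figure D1:**
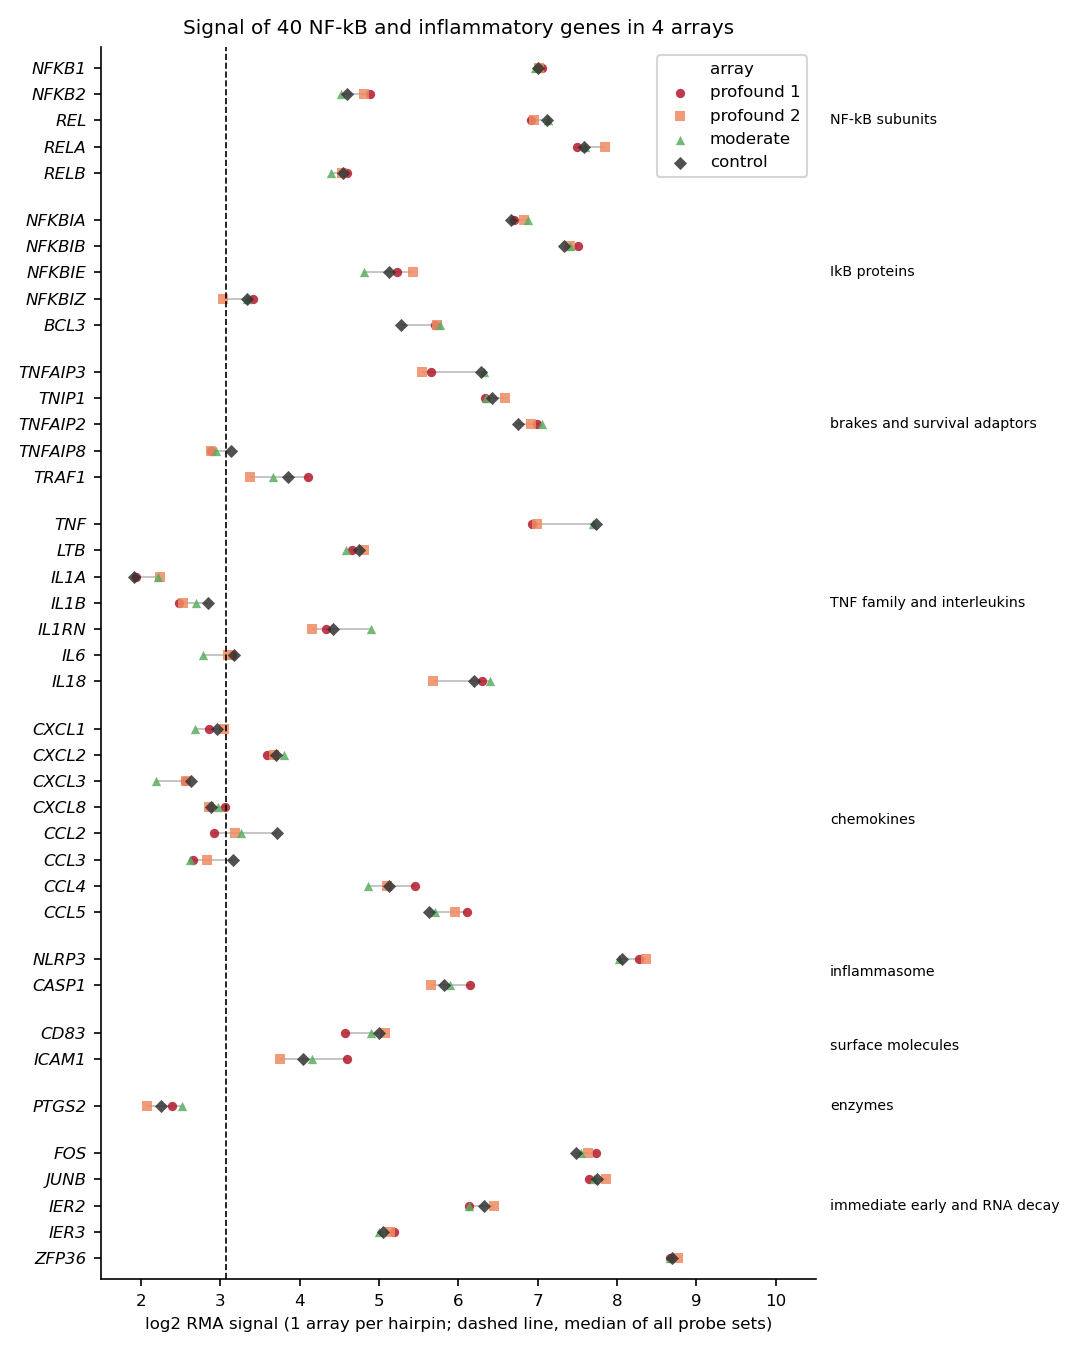
Log2 RMA signal (x axis) of the 40 genes with a probe set of their own, grouped by role, with 1 symbol per array: profound 1, profound 2, moderate and control. The dashed line is the table median of 3.08. TNF and TNFAIP3 show the profound pair set apart on the low side, with moderate and control lying together.

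The upstream sequences of TNF and TNFAIP3 are shown because both genes were lower than control in the same arrays. That of NFKBIA, a textbook NF-kB target that was not lower than control there, is shown beside them. Each run is the 250 bases before the RefSeq start (GRCh38.p14), 5′ to 3′ on the gene's own strand, and capitals mark matches to the NF-kB consensus on either strand.
TNF (chr6:31575315-31575564, plus strand): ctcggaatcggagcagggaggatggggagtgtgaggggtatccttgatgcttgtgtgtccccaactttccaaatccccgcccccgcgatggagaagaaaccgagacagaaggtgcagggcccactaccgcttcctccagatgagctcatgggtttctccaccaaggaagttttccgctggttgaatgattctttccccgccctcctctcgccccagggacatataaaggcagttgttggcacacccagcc
TNFAIP3 (chr6:137867009-137867258, plus strand): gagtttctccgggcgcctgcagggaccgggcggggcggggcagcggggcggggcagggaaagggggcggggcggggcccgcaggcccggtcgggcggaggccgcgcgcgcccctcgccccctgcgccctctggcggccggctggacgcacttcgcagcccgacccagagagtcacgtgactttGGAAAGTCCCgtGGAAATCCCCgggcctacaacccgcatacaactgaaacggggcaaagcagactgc
NFKBIA (chr14:35404750-35404999, minus strand): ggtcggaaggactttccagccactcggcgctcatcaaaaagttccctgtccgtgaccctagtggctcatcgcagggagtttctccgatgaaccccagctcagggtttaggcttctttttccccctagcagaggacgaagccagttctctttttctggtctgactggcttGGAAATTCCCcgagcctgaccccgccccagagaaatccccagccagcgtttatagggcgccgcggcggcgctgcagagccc

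TNFAIP3 held 2 matches to the NF-kB consensus, the nearer of which ends 46 bases before the start, NFKBIA held 1 and TNF none. The absence of a match in TNF says only that these letters are not in this window. None of the 3 held a RUNX motif, searched as TGTGGT or TGCGGT, or the AP-1 motif TGANTCA, on either strand. The promoter table matched 32 of the 40 genes, with 50 promoters. Of these 17 (34.0%) held the NF-kB consensus, beside 5.21% of all 35116 promoters in the table. The genes were listed as members of this pathway, so that share describes the list. A RUNX motif was in 8 of the 50 promoters (16.0%), beside 16.3% of all promoters, and the AP-1 motif in 5 (10.0%), beside 6.57%. Promoter windows of the same gene can overlap, so promoters are not separate units. Counted by gene, the NF-kB consensus was in 14 of 32 (43.8%), beside 6.28% of all genes with a promoter. A RUNX motif was in 6 (18.8%), beside 19.3%, and the AP-1 motif in 4 (12.5%), beside 8.06%.

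The genes next to TNF and TNFAIP3 on chromosome 6 were then read, a step chosen after the values were seen. LTA, the lymphotoxin-alpha gene that precedes TNF, read 3.84 in profound 1, 3.72 in profound 2, 3.76 in moderate and 3.86 in control. LTB, the lymphotoxin-beta gene that follows it, read 4.66, 4.81, 4.59 and 4.75 in the same order. The low TNF signal in the profound arrays had no counterpart of like size in either neighbour. Both neighbours read far below TNF, and a fall of that size can be compressed at low signal. LST1, a leukocyte gene one place further on, read 7.64 in profound 1, 7.64 in profound 2, 7.97 in moderate and 7.93 in control, which sets the profound pair -0.28 and -0.29 log2 units from control. Next to TNFAIP3 the reading was different. WAKMAR2, a long non-coding RNA gene, read 3.45 in profound 1, 3.39 in profound 2, 4.04 in moderate and 4.24 in control. Its differences from control were -0.79 and -0.85 in the profound arrays and -0.20 in moderate, so it split the arrays as TNFAIP3 did. The RefSeq spans of WAKMAR2 and TNFAIP3 overlap, and the strand and probes of each probe set are not known here, so signals of the overlapping genes cannot be told apart. PERP, the nearest gene with a probe set on the other side of TNFAIP3, read 4.01 in profound 1, 3.78 in profound 2, 3.91 in moderate and 3.80 in control.

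**Figure D2:**
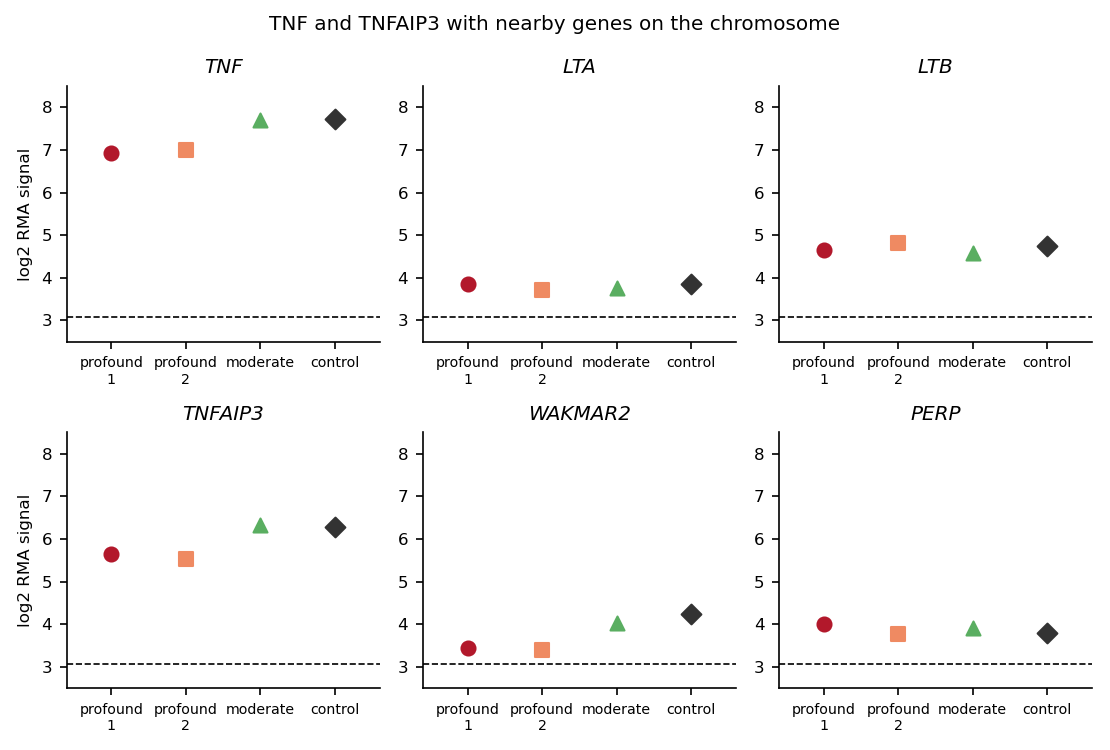
Log2 RMA signal (y axis) of TNF with LTA and LTB, and of TNFAIP3 with WAKMAR2 and PERP, with 1 point per array (profound 1, profound 2, moderate, control). The dashed line is the table median. Both profound arrays are low for TNF, TNFAIP3 and WAKMAR2, and LTA, LTB and PERP stay within 0.23 log2 units.

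The NF-kB subunits themselves differed little. NFKB1, the p105 precursor of p50, read 7.05 in profound 1, 7.01 in profound 2, 6.96 in moderate and 7.0 in control, the narrowest range of the 34 genes (0.09). RELA, the p65 activating subunit, read 7.50 in profound 1, 7.85 in profound 2, 7.60 in moderate and 7.59 in control, so profound 2 alone stood apart, by 0.27 log2 units from control. REL, the c-Rel subunit of blood cells, read 6.91 in profound 1, 6.95 in profound 2, 7.13 in moderate and 7.12 in control. The profound arrays were the lower pair for REL, by -0.21 and -0.17 log2 units from control, which is short of 1.5-fold. NFKB2, the p100 precursor of the alternative pathway, read 4.89 in profound 1, 4.81 in profound 2, 4.53 in moderate and 4.60 in control, with the profound pair uppermost. RELB, its usual partner, read 4.59 in profound 1, 4.54 in profound 2, 4.40 in moderate and 4.55 in control. Of the 5 subunits none reached 1.5-fold in any array against control.

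The IkB proteins, which bind and hold NF-kB dimers, also stayed under 1.5-fold from control. NFKBIA read 6.70 in profound 1, 6.82 in profound 2, 6.87 in moderate and 6.66 in control. Unlike TNFAIP3, which belongs to the same feedback loop, it was not lower than control in the profound arrays. Relative to moderate it stood at -0.17 log2 units in profound 1 and -0.05 in profound 2. NFKBIB (IkB-beta) ranged from 7.33 to 7.51 over the arrays. NFKBIE (IkB-epsilon) read 5.23 in profound 1, 5.44 in profound 2, 4.81 in moderate and 5.12 in control. It stood 1.54-fold higher in profound 2 than in moderate. In that comparison IL1RN (1.68-fold), IL18 (1.65-fold), TNF and TNFAIP3 were lower past 1.5-fold. The share of all genes past 1.5-fold in profound 2 alone against moderate was not counted. BCL3, a nuclear IkB protein that partners p50 and p52 homodimers, read 5.71 in profound 1, 5.73 in profound 2, 5.77 in moderate and 5.28 in control. All 3 RUNX1 hairpin arrays lay together above control for BCL3, by 0.43, 0.45 and 0.49 log2 units. It was the 1 gene of 34 more than 0.3 log2 units above control in all 3 arrays, beside 1.44% of all genes. That size was chosen after the values were seen, and a deviation of the single control array cannot be told apart from a shared shift. NFKBIZ, an inducible nuclear IkB protein, lay close to the table median, between 3.04 and 3.42.

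Of the other adaptors, TNIP1, which works with A20, ranged from 6.34 to 6.59. TNFAIP2, a TNF-inducible gene of myeloid and endothelial cells, ranged from 6.75 in control to 7.05 in moderate. TNFAIP8, a TNF-induced regulator of apoptosis, was above the table median in control alone (3.14). TRAF1, a TNF receptor adaptor and NF-kB target, is given with the profound 1 and profound 2 comparison.

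Several interleukin genes were dim. IL1A and IL1B, the genes of both interleukin-1 agonists, read below the table median in all 4 arrays, at 1.92 to 2.25 and 2.48 to 2.85. IL6, the interleukin-6 gene, read 3.15 in profound 1, 3.10 in profound 2, 2.78 in moderate and 3.18 in control. IL1RN, the interleukin-1 receptor antagonist gene, read 4.34 in profound 1, 4.16 in profound 2, 4.90 in moderate and 4.43 in control, with the moderate array uppermost. LTB, given above, had 7 identical probe sets, and a dimmer one at 3.03 in profound 1, 3.09 in profound 2, 2.97 in moderate and 3.34 in control.

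Among the chemokines CCL2, the monocyte attractant MCP-1, was the 1 gene past 1.5-fold from control. It read 2.93 in profound 1, 3.19 in profound 2, 3.26 in moderate and 3.71 in control. Control was the highest array, profound 1 read below the table median, and against control the hairpin arrays stood at -0.79, -0.53 and -0.45 log2 units. CCL3, the MIP-1-alpha gene, read 2.66 in profound 1, 2.84 in profound 2, 2.62 in moderate and 3.17 in control, so it passed the filter through the control array alone. CCL2 and CCL3 were the 2 genes of 34 more than 0.3 log2 units below control in all 3 hairpin arrays, beside 1.03% of all genes, at the size chosen after the values were seen. Both are dim there, and for both a deviation of the control array cannot be told apart from a shared shift.

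CCL5, the RANTES gene, lay on the other side. It read 6.11 in profound 1, 5.96 in profound 2, 5.71 in moderate and 5.63 in control. The profound pair was uppermost, by 0.48 and 0.33 log2 units from control, short of 1.5-fold. CCL4, the MIP-1-beta gene, read 5.45 in profound 1, 5.10 in profound 2, 4.86 in moderate and 5.13 in control. For CCL4 profound 1 was 1.51-fold higher than moderate, while TNF and TNFAIP3 were lower past 1.5-fold in that comparison. The share of all genes past 1.5-fold in profound 1 alone against moderate was not counted. A CCL4 probe set shared with CCL4L1 and CCL4L2 spanned only 3.26 to 3.46, and CCL3 and CCL4 have near-identical copies in the genome, so their signals are uncertain. CXCL1, CXCL3 and CXCL8, neutrophil attractants, read below the table median in all 4 arrays, and CXCL2 ranged from 3.59 to 3.80.

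The inflammasome pair was well expressed. NLRP3, the sensor, read 8.28 in profound 1, 8.37 in profound 2, 8.03 in moderate and 8.07 in control, with the profound pair uppermost by 0.21 and 0.30 log2 units from control. CASP1, the protease that matures interleukin-1-beta and interleukin-18, read 6.14 in profound 1, 5.65 in profound 2, 5.89 in moderate and 5.82 in control. The profound arrays thus lay on opposite sides of control for CASP1.

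The immediate early and mRNA decay genes spanned narrow ranges. ZFP36, the tristetraprolin gene whose product degrades TNF mRNA, ranged from 8.66 to 8.77. FOS, an AP-1 subunit, ranged from 7.48 in control to 7.74 in profound 1, and JUNB, its partner, from 7.65 to 7.86. IER2 ranged from 6.14 to 6.44. IER3, a stress-inducible survival gene, ranged from 5.00 to 5.19 in its brightest probe set. PTGS2, the inducible cyclooxygenase gene, read below the table median throughout (2.08 to 2.52). The brighter probe set shared by SOD2 and SOD2-OT1 read 3.30 in profound 1, 3.30 in profound 2, 3.61 in moderate and 3.78 in control, and the other ranged from 3.13 to 3.33.

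**Figure D3:**
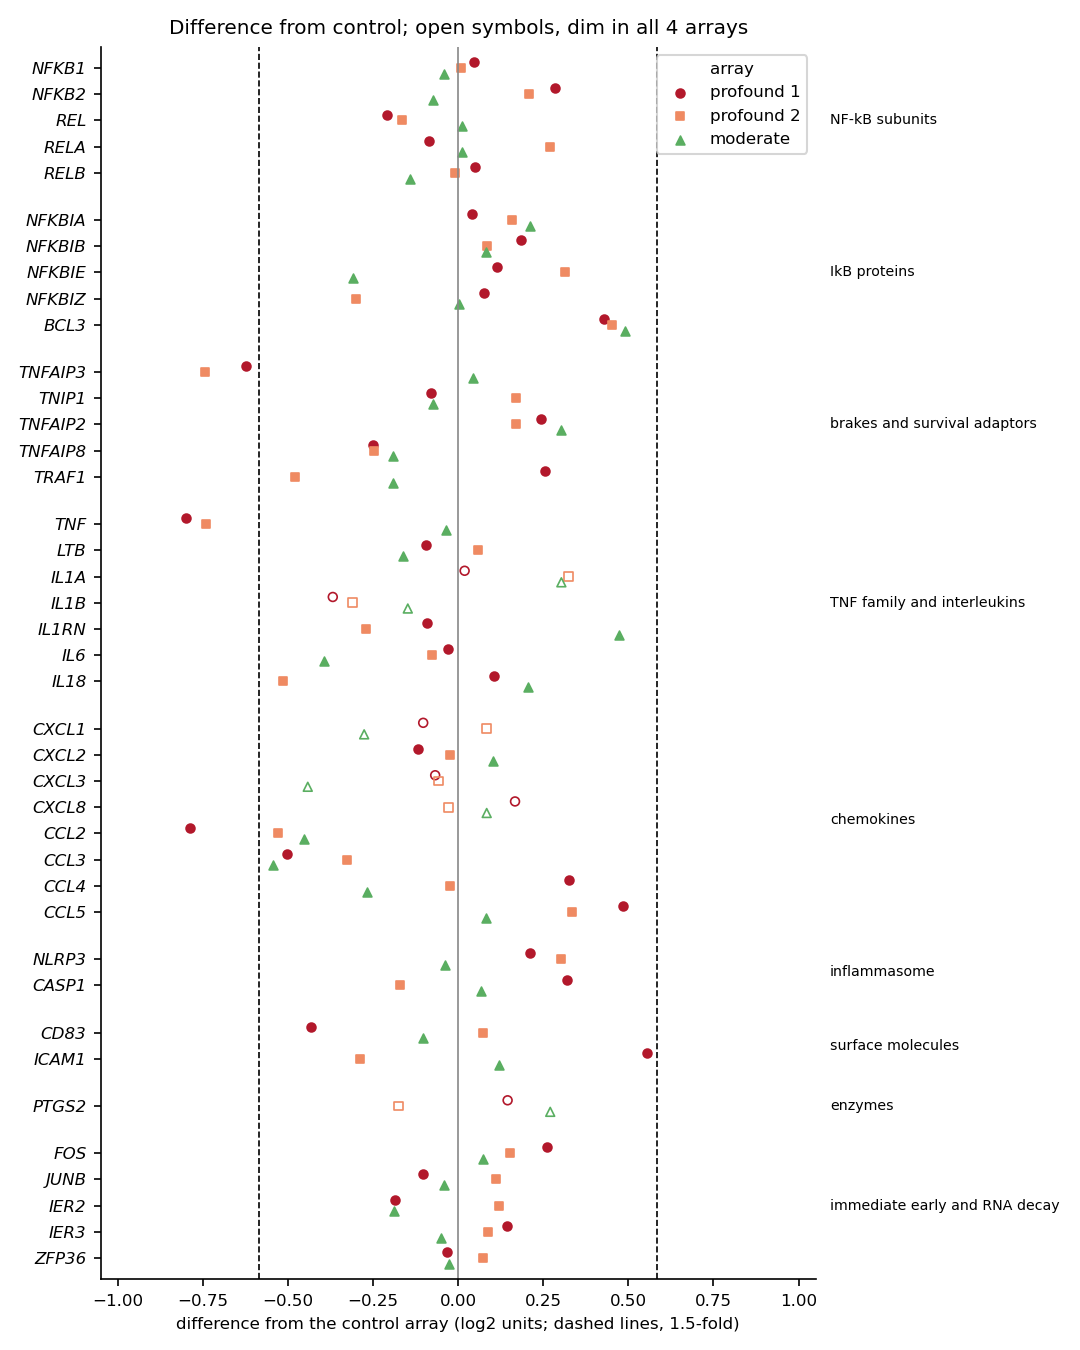
Difference from the control array in log2 units (x axis) for the 40 genes by role, in the profound 1, profound 2 and moderate arrays. Dashed lines mark 1.5-fold and open symbols mark the 6 genes below the table median in all 4 arrays. TNF and TNFAIP3 lie past the line in both profound arrays, CCL2 in profound 1, and no gene in moderate.

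Few genes of the set passed the size rule. In profound 1, 3 of 34 genes were at least 1.5-fold lower than control (TNF, TNFAIP3 and CCL2) and none higher, beside 4.02% of all genes lower and 2.76% higher. In profound 2, 2 were lower (TNF and TNFAIP3) and none higher, beside 1.15% and 1.26% of all genes. In moderate none of the 34 passed, beside 0.963% of all genes higher and 0.504% lower. The count in profound 1 is near that background. No gene of the set reached 2-fold from control, beside 0.787% of all genes in profound 1 and 0.0917% in each of profound 2 and moderate.

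The set as a whole did not lean to one side. Its median difference from control was 0.04 log2 units in profound 1, 0.03 in profound 2 and -0.04 in moderate, where the medians over all 13087 genes were -0.0018, -0.0016 and 0.00675. In profound 1 and again in profound 2, 18 of the 34 genes lay above control and 16 below. Both profound arrays lay below both others, at any size, for 7 of the 34 genes (20.6%), beside 19.8% of all genes, and above both for 8 (23.5%), beside 17.6%. The range over the 4 arrays had a median of 0.36 log2 units for the set and 0.31 for all genes. The filter let TNFAIP8 and CCL3 in through the control array alone, so these 2 could only differ downward.

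The 6 genes below 3.08 in all 4 arrays were IL1A, IL1B, CXCL1, CXCL3, CXCL8 and PTGS2. RMA draws such dim probe sets toward a floor, and no direction is read from them. A further 5 genes (TNFAIP8, NFKBIZ, IL6, CCL2 and CCL3) were below it in some arrays, and 29 in none.

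The profound arrays were also set against each other, which does not involve the control. ICAM1, the adhesion molecule that binds leukocyte integrins, read 4.60 in profound 1, 3.75 in profound 2, 4.16 in moderate and 4.04 in control. It was 1.80-fold higher in profound 1 than in profound 2 (0.84 log2 units), with both other arrays between them. TRAF1 read 4.11 in profound 1, 3.37 in profound 2, 3.66 in moderate and 3.85 in control, 1.67-fold higher in profound 1 than in profound 2. IL18, the gene of a cytokine stored as a precursor in monocytes, read 6.30 in profound 1, 5.68 in profound 2, 6.40 in moderate and 6.19 in control. For IL18 it was profound 2 that stood apart on the low side, with the other 3 arrays together. These 3 genes of 34 were at least 1.5-fold higher in profound 1 than in profound 2, beside 2.28% of all genes, and none was lower, beside 3.03%.

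CD83, a surface marker of maturing dendritic cells, was furthest the other way. It read 4.57 in profound 1, 5.08 in profound 2, 4.90 in moderate and 5.00 in control, a difference of -0.50 between the profound arrays that is short of 1.5-fold. TNF and TNFAIP3, by contrast, differed between the profound arrays by only -0.06 and 0.12 log2 units.

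**Figure D4:**
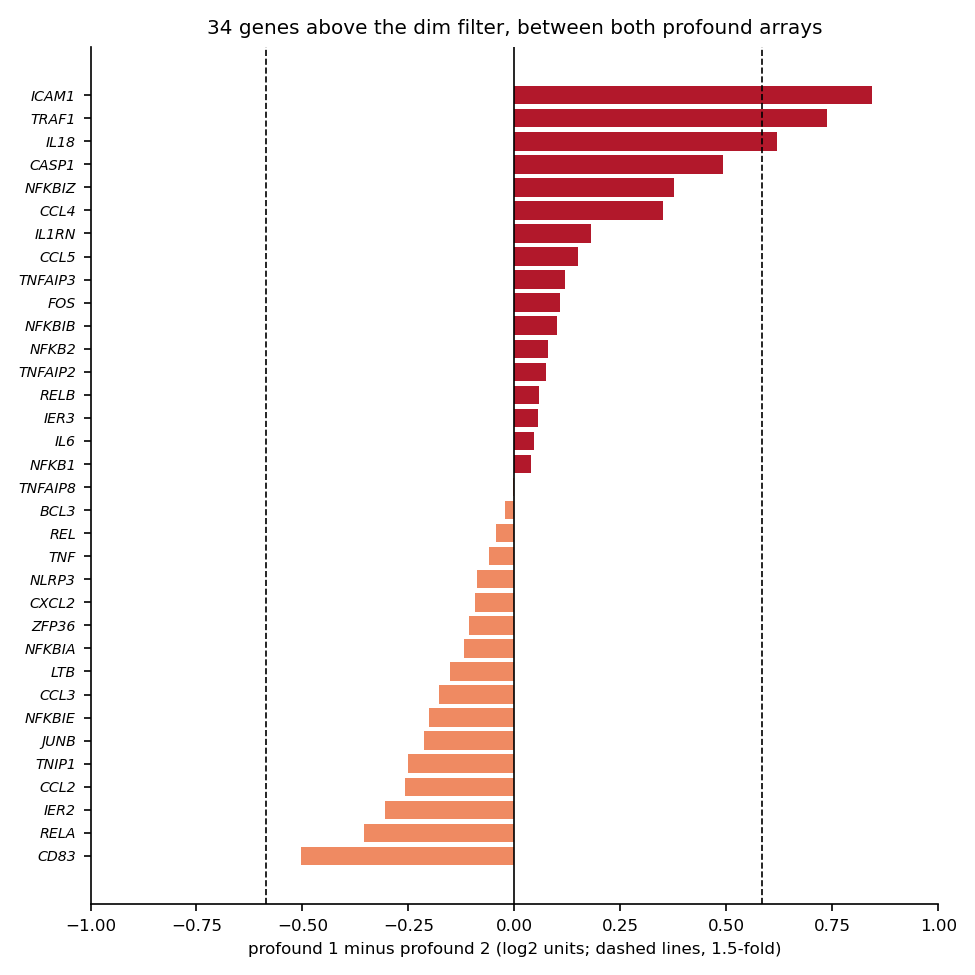
Signal in profound 1 minus signal in profound 2 in log2 units (x axis) for the 34 genes above the dim filter, 1 bar per gene, dashed lines at 1.5-fold. ICAM1, TRAF1 and IL18 pass the line on the side of profound 1, CD83 is lowest at -0.50, and TNF and TNFAIP3 lie near 0.

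Other genes of the pathway were read from 6 lists of 108 genes, of which 101 had a probe set and 78 passed the dim filter. In both profound arrays 1 of the 78 was at least 1.5-fold higher than control and none lower, beside 0.344% and 0.336% of all genes. That gene was GCH1, 1 of 15 tested further NF-kB targets, which encodes the first enzyme of tetrahydrobiopterin synthesis. It read 6.33 in profound 1, 6.18 in profound 2, 5.97 in moderate and 5.40 in control. All 3 hairpin arrays were above control for GCH1, by 0.93 in profound 1, 0.78 in profound 2 and 0.57 log2 units in moderate. A deviation of the single control array cannot be told apart from a shared shift for this gene. TNF and TNFAIP3, by contrast, lay below control in both profound arrays and near it in moderate. For every count by list that follows, the shares of all genes past 1.5-fold were 4.02% lower and 2.76% higher in profound 1, 1.15% lower and 1.26% higher in profound 2, and 0.504% lower and 0.963% higher in moderate.

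Of 8 tested receptors of these cytokines, 1 was at least 1.5-fold lower in profound 1, beside 4.02% of all genes, and none passed in profound 2, beside 1.15% lower and 1.26% higher. CCR2, the receptor of CCL2, read 6.58 in profound 1, 7.49 in profound 2, 7.34 in moderate and 7.21 in control. CCR1, a receptor of CCL3 and CCL5, read 5.69 in profound 1, 5.99 in profound 2, 6.26 in moderate and 6.21 in control. CXCR2, a receptor of CXCL8, was the 1 receptor past 1.5-fold in moderate, 0.73 log2 units above control, beside 0.963% of all genes. The TNF receptor gene TNFRSF1A ranged from 7.66 to 7.86.

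Of 19 tested signal carriers between receptor and NF-kB none reached 1.5-fold from control in any array, with medians of 0.14, 0.07 and 0.05 log2 units from control in profound 1, profound 2 and moderate. TRADD, the adaptor of TNF receptor 1, read 6.09 in profound 1, 5.96 in profound 2, 6.22 in moderate and 5.95 in control. The largest differences were those of BTRC, which marks phosphorylated IkB for destruction (0.47, 0.10 and 0.03 in profound 1, profound 2 and moderate), and IRAK2 (0.35, -0.0037 and 0.20). IRAK2 encodes an interleukin-1 receptor-associated kinase. Of 11 tested further brakes none reached it either. CYLD, a deubiquitinase, was at 0.53, 0.21 and 0.21 in the same arrays and SIGIRR, an inhibitory receptor gene, at 0.36, 0.18 and -0.06.

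Of 15 tested AP-1 and immediate early genes, 1 was at least 1.5-fold lower in profound 1, beside 4.02% of all genes, and none in profound 2, beside 1.15%. The list had medians of -0.20 in profound 1, -0.15 in profound 2 and -0.05 in moderate, where those of all genes were -0.0018, -0.0016 and 0.00675. EGR1, an early growth response factor, read 6.35 in profound 1, 6.51 in profound 2, 6.75 in moderate and 7.03 in control, the gene of this list furthest from control. ZFP36L1, a relative of ZFP36, was at 0.04 in profound 1, -0.48 in profound 2 and -0.15 in moderate. Of 10 tested genes of the inflammasome and interleukin-1 handling none reached 1.5-fold from control in any array. NLRP1, another inflammasome sensor, was at 0.51 in profound 1, 0.12 in profound 2 and 0.54 in moderate. IL18BP, the interleukin-18 binding protein gene, was at -0.07, -0.40 and 0.24 in the same arrays.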

How the data were processed

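The authors deposited log2 signals of 53617 probe sets on 4 arrays. The submitters' processing notes name RMA, Transcriptome Analysis Console 1.0 and Affymetrix Expression Console 1.3.1. Neither settings nor a genome build is stated there. Quantile normalisation hides a shift common to most genes. Groups follow the genotype field, and every value column was used.

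Names came from the platform annotation (23871 probe sets with 1 symbol, 1842 with several, 27904 with none listed), updated through RefSeq (23214 unchanged, 88 by Entrez ID, 565 by synonym, 4 kept). Small RNA, open-reading-frame, antisense and receptor segment genes were left out of the 13087 genes. Genes were named by rule: all 42 listed genes, with every array's value for those at 1.5-fold and for the core regulators. The members, lists and rules were chosen with earlier results of these data known. Promoter sequences are RefSeq's. Simulated data with known changes were used to test the size rule. The planted changes were 2-fold or larger, with the same noise at every level. Changes of the size called here, all under 2-fold, were not simulated. Alternatives were filters, probe set averaging, cyclic loess (limma 3.58.1, R 4.3.3), centring, a floor, the mean of both profound arrays and 2-fold. Python 3.11.15, numpy 2.4.6, pandas 2.3.3 and matplotlib 3.10.9 were used.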

Additional observations from a re-analysis of the deposited data

Results flagged for a closer look

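In 3 genes the hairpins labelled profound 1 and profound 2 lay on opposite sides of the control array and at least 1.5-fold apart. The share of all genes meeting both conditions was not counted. Being 1.5-fold apart alone was met by 2.28% of all genes, higher in profound 1, and by 3.03%, lower in profound 1. With 1 array per hairpin the difference was not tested. ICAM1 differed by 0.84 log2 units between profound 1 and profound 2 (0.55 above control in profound 1 and -0.29 in profound 2). TRAF1 differed by 0.74 (0.26 and -0.48 from control). IL18 differed by 0.62 (0.10 and -0.52 from control), and its 0.10 in profound 1 is within the yardstick of 0.16 for its level.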

How the results depend on the processing

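No paired analysis was possible because each group has 1 array. At 2-fold in place of 1.5-fold the count was 0 in place of 3 for profound 1 against control, 0 in place of 2 for profound 2 against control, for both profound arrays against control, against moderate and against both, and 0 in place of 3 between profound 1 and profound 2. With the 75th percentile as the filter, 1 gene (IL18) in place of 3 differed between profound 1 and profound 2, since TRAF1 and ICAM1 no longer entered, and 2 in place of 3 were lower in profound 1 than control, without CCL2. When the mean of both profound arrays had to pass in place of each array, 3 genes in place of 2 were lower than control (CCL2 added) and 3 in place of 2 lower than moderate (IL1RN added). The other filters, averaged probe sets, cyclic loess, centring and a floor at the table median left each of these counts within 1.5 times (centring was not run for both profound arrays against both others). TNF stayed between -0.81 and -0.73 log2 units from control in the profound arrays and TNFAIP3 between -0.74 and -0.62, over averaged probe sets, cyclic loess, centring and the floor. Over 12 named genes, all 192 differences under these 4 alternatives moved by less than the yardstick of their level. Much of that was fixed beforehand. Of these genes, averaging could alter TNF alone and the floor CCL2 alone. Centring moved all genes by the same small amount within a comparison, so cyclic loess was the alternative free to move each gene. The NF-kB consensus was in 17 member promoters over 250 bases and 15 over 100. The combination of both profound arrays against both others and its alternatives were chosen after seeing the data. Signals near the table median limit what can be read for the dim genes.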
